A study of Mus musculus with 6 samples.

Results

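Gdf9 and Bmp15, the genes of the principal growth factors that an oocyte secretes, were followed across 6 libraries of mouse oocytes. They were taken by gene symbol as 2 of the 25239 genes in the deposited table, over all of its columns. GDF9 and BMP15 belong to the TGF-beta superfamily, are made as precursors that convertases cleave, and act on the granulosa and cumulus cells around the oocyte. There they bind a type II receptor, BMPR2, with a type I receptor, TGFBR1 for GDF9 and BMPR1B for BMP15. GDF9 then signals through SMAD2 and SMAD3, and BMP15 through SMAD1 and its relatives. Together they support follicle growth and cumulus expansion, and mice without Gdf9 are infertile because their follicles stop growing early.

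All oocytes came from antral follicles of female CD-1 mice, an outbred stock, aged 4 to 6 weeks. Complexes of oocyte and cumulus cells received a microinjection of water (3 libraries) or of a phthalate metabolite mixture (3 libraries). Phthalates are plasticizers, and neither the members of the mixture nor their dose are given in the labels. Both groups were then held in the same maturation medium with serum, follicle-stimulating hormone and pyruvate, and oocytes were taken at the germinal vesicle (GV) stage, before the nuclear envelope breaks down. The comparison asks whether the mixture altered the oocyte's transcripts. The labels number 3 libraries in each group but name no animal or culture behind them. They can be read as 1 oocyte per library or as 1 oocyte per group, and under the latter reading the spread and overlap within a group would be technical. For that reason each group was treated as 1 sample and no difference was tested. Every interval here covers counting error only.

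The libraries held between 252267 and 300917 gene counts each, and ERCC spike-in RNAs, synthetic RNAs added at a fixed amount, took 292 to 753 counts. All 12 oocyte markers on a fixed list passed the count filter, with 5310 to 7514 counts per library. Padi6, Ooep, Dppa3 and Zp3, genes of maternal cytoplasmic and egg coat proteins, led that list. Its median log2 ratio of phthalate over water was -0.04, and only Kit, the receptor for KIT ligand, was past 1.5-fold, at -0.63 (95% interval -0.99 to -0.28), where 15.1% of all genes passing the filter were. Kit had 48, 45 and 86 counts in water and 34, 33 and 43 in phthalate, with overlap in CPM, and it was not past 1.5-fold without water library 3 (-0.26) or phthalate library 2 (-0.47). Nlrp5, a gene of the subcortical maternal complex named after its values were seen, was at -0.18 and higher in all water libraries, by less than 1 CPM between the nearest libraries. Of 24 cumulus and granulosa markers, 12 had 0 counts, among them Amh, Star, Foxl2 and Gja1. The list summed to 67 to 111 counts per library. Most of these came from Esr2, an oestrogen receptor gene (54 to 84 counts), and Nr5a2, a nuclear receptor gene (8 to 32 counts). Without both, 0 to 12 counts per library were left. Summed over the list, the water libraries had 101, 77 and 67 counts and the phthalate libraries 95, 111 and 81, with overlap. Esr2 itself had a log2 ratio of phthalate over water of 0.51 (0.22 to 0.81), with no overlap, while the groups overlapped for Nr5a2 (-0.64, or -1.53 to 0.21 on counts halved to pairs of mates). Without water library 1 Nr5a2 was at -0.20 and without phthalate library 3 at -0.43. The part of these transcripts in the results on the members was not tested.

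Per GENCODE M21 (GRCm38), Gdf9 lies on chromosome 11 at chr11:53431023-53437904 on the plus strand, and Bmp15 on chromosome X at chrX:6314107-6320721 on the minus strand. Each coding transcript has 2 exons. That of Gdf9 is 1793 bases long, with a coding part of 441 codons and 360 bases of 3′ UTR after the stop. That of Bmp15 is 3060 bases long, with 392 codons and 1523 bases of 3′ UTR. The coding ends are shown because they hold the C-terminal part of the secreted factors, in which the pair departs from most of the superfamily. The third line is Bmp6, another superfamily member that oocytes secrete. Each run gives the last 45 codons before the stop, 5′ to 3′, from GENCODE M21 transcripts, with cysteine codons in capitals:

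Gdf9: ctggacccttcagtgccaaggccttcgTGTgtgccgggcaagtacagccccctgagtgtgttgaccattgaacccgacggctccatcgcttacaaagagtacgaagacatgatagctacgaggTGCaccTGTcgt
Bmp15: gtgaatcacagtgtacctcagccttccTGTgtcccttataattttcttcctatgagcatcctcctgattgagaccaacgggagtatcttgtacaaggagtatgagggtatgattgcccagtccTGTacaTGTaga
Bmp6: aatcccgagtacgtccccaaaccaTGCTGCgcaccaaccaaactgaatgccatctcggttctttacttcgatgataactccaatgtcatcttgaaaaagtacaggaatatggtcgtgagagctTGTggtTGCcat

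Bmp6 has 4 cysteine codons in this stretch, of which 1 pair stands side by side. Gdf9 and Bmp15 have 3 each and no such pair. Over the last 110 codons the numbers were 6 for Gdf9, 6 for Bmp15 and 7 for Bmp6. As background, the cysteine that both factors lack is the one that joins the chains of other family dimers, so that GDF9 and BMP15 associate without that covalent bond. Along the 135 bases, Gdf9 and Bmp15 aligned without gaps and shared 75. Gdf9 shared 68 of 129 aligned bases with Bmp6, and Bmp15 shared 63 of 132.

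The transcripts are far enough apart for reads of 150 bp to be assigned to one or the other. The longest stretch identical between the Gdf9 and Bmp15 transcripts was 12 bases. No stretch of 50 bases of either was found in a transcript of another gene, on either strand (0 genes). One neighbour touches Gdf9. In RefSeq, Uqcrq, which encodes a subunit of respiratory complex III and runs on the opposite strand, overlaps the Gdf9 gene by 58 bases. GENCODE starts Gdf9 past that overlap. Uqcrq had 102 to 137 counts per library, and since the use of strand in counting is not given in the sources used here, reads in the overlap cannot be told apart. Leap2, which encodes an antimicrobial peptide and is next beyond Uqcrq, had 0 counts in all libraries. Nothing overlaps Bmp15 in RefSeq, and Shroom4, the nearest gene on its right that the table holds, had 3 to 19 counts.

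The 3′ ends matter because reverse transcription began from an oligo(dT) primer on the poly(A) tail. In GV oocytes many stored messages have short tails, which lengthen at maturation where the 3′ UTR carries a cytoplasmic polyadenylation element. The windows below, from GENCODE M21, show 30 bases around the last AATAAA, the signal for cleavage and tail addition, with AATAAA and TTTTAT, a form of that element, in capitals:

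Gdf9: ggTTTTATgtgacggaagAATAAActgttg
Bmp15: attttcttaatcttaaagAATAAAttttca

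AATAAA began 23 bases before the annotated end of Gdf9 and 28 before that of Bmp15. Of 20532 genes with a 3′ UTR, 62.1% hold it in the last 50 bases. TTTTAT began 39 bases before the end of Gdf9. In Bmp15 the copy nearest the end began 530 bases before it. On the transcript strand, 22.2% of the genes hold TTTTAT or TTTTAAT in the last 150 bases. These matches are letters in a window and no measure of tail length.

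Gdf9 was among the most abundant transcripts in every library. Its counts were 3296, 2268 and 2476 in water libraries 1, 2 and 3 and 2610, 2533 and 2184 in phthalate libraries 1, 2 and 3. In CPM, counts scaled to a common total of 1000000 gene counts, the levels were 12230, 7537 and 8725 in water and 10346, 8585 and 7944 in phthalate. Water library 1 was the highest and water library 2 the lowest, so the phthalate values lay inside the range of the water values. By level Gdf9 ranked between place 3 and place 8 of the genes in a library. Its share of all gene counts was 0.94% in the summed water libraries (95% exact binomial interval 0.92 to 0.96) and 0.89% in the summed phthalate libraries (0.87 to 0.91). In the order of mean CPM it stood at place 5, between Hsp90aa1, a cytosolic chaperone gene (9919 CPM), and Ubb, a ubiquitin gene (8326 CPM). The ranges of these neighbours over the libraries overlapped with that of Gdf9.

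Bmp15 was detected in each library at a lower level. It had 317, 386 and 397 counts in the water libraries and 208, 302 and 343 in the phthalate libraries. The levels were 1176, 1283 and 1399 CPM in water and 825, 1024 and 1248 CPM in phthalate. Phthalate library 3 lay above water library 1, so the groups overlapped, while phthalate libraries 1 and 2 lay below all water libraries. Bmp15 ranked from place 74 to 84 in the water libraries and from 93 to 145 in the phthalate libraries. Its mean CPM of 1159 put it at place 92, between Fbxw16, an oocyte F-box gene, and Khdc3, a gene of the subcortical maternal complex. Their ranges also overlapped with that of Bmp15.

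**Figure D1:**
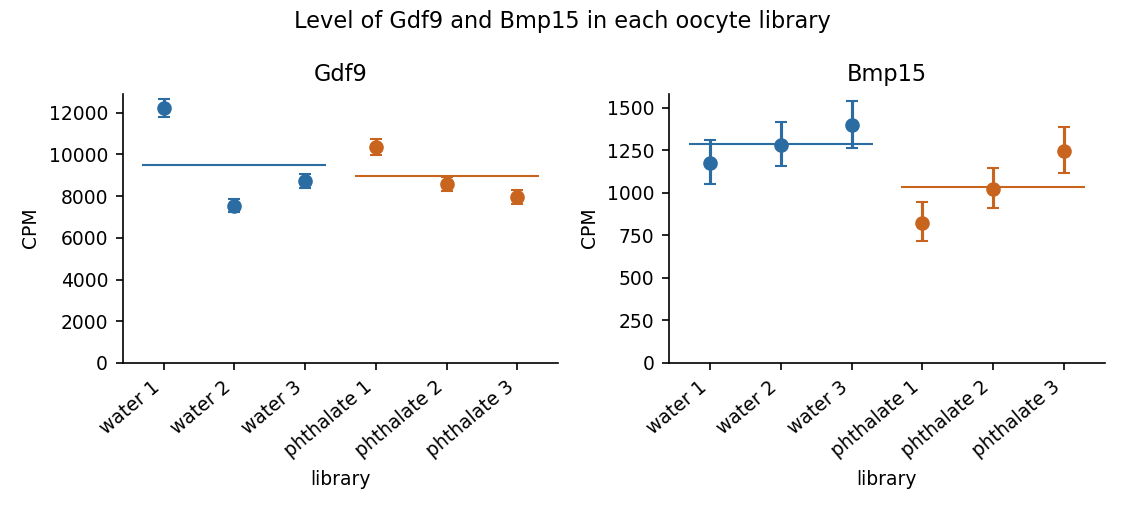
CPM of Gdf9 (left) and Bmp15 (right) in each library, on linear axes from 0. Points are libraries (blue water, orange phthalate), bars are 95% exact Poisson intervals, and horizontal lines are group means. Gdf9 was highest in water library 1 (12230 CPM), and Bmp15 was lowest in phthalate library 1 (825 CPM).

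Set in order, the Gdf9 levels of water library 1 and phthalate library 1 stood apart from each other and from the rest beyond counting error. Each remaining neighbour in that order had an overlapping Poisson interval. The interval was 8385 to 9076 CPM in water library 3 and 8254 to 8926 in phthalate library 2. In phthalate library 3 it was 7614 to 8285, and in water library 2 it was 7230 to 7854. For Bmp15, all neighbours in the order had overlapping intervals, from water library 3 (1265 to 1544 CPM) down to phthalate library 1 (716 to 945 CPM).

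Summed over libraries, Gdf9 was nearly level between the groups and Bmp15 was lower in the phthalate group. Gdf9 had 8040 counts in water and 7327 in phthalate, a log2 ratio of phthalate over water of -0.06 (95% interval -0.11 to -0.02), or 0.958-fold. Small counts in the table are mostly even (68.0% to 71.1% of values from 1 to 20 in a library), as when both mates of a pair are counted, and with counts halved to pairs the Gdf9 interval was -0.13 to 0.00313. Without water library 1 the ratio was 0.14, so its direction rested on that library. It was -0.19 without water library 2, -0.11 without water library 3 and -0.15 without phthalate library 1. It was -0.0027 without phthalate library 2 and -0.03 without phthalate library 3. On the scale of ERCC counts it was 0.053, where the median of all genes was itself 0.12.

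Bmp15 had 1100 counts in water and 853 in phthalate. Its log2 ratio was -0.29 (-0.43 to -0.16), or 0.815-fold, and -0.48 to -0.11 was the interval on pairs. The ratio was negative under each of the 12 alternatives computed for it, from -0.49 without phthalate library 3 to -0.15 without phthalate library 1. Per ERCC count, Bmp15 gave 0.421, 1.14 and 1.27 counts in the water libraries and 0.470, 0.606 and 1.17 in the phthalate libraries, with overlap. Fewer transcripts of a gene and a lower yield of its cDNA cannot be told apart in these values.

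Rn45s, the ribosomal RNA precursor gene, took a larger share of counts in the phthalate libraries (3.54%, 2.89% and 3.38%) than in the water libraries (2.02%, 2.32% and 2.35%), with no overlap. With its counts left out, the log2 ratio stayed at -0.06 for Gdf9 and -0.29 for Bmp15. The part of RNA composition beyond those counts was not tested.

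Neither gene was past 1.5-fold. Over the 4644 genes that passed the filter on low counts, 15.1% were past 1.5-fold in either direction, and the median log2 ratio was 0.0089. Of 198 other genes whose mean count lay within 2-fold of that of Bmp15, 26 (13.1%) had a ratio farther from 0, and 90% of the 198 lay between -0.30 and 0.36. Of the 7 such genes around Gdf9, 6 were farther from 0. The groups did not overlap for 10% of the 4644 genes, and for 0 of the 2 members.

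**Figure D2:**
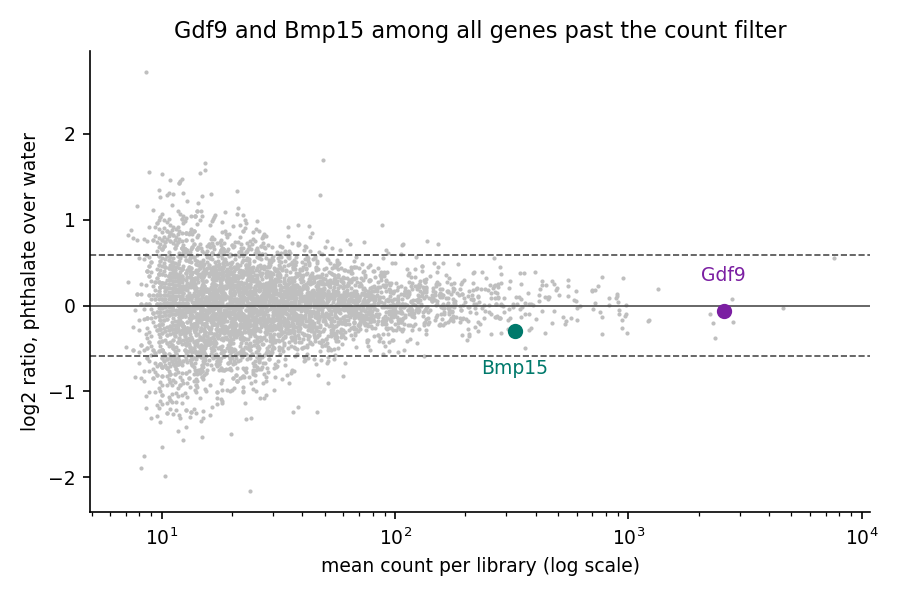
Log2 ratio of phthalate over water against the mean count per library (log axis) for the 4644 genes that passed the count filter, in grey, with dashed lines at 1.5-fold. Gdf9 (-0.06) lies near 0 at the abundant end, and Bmp15 (-0.29) lies below 0 inside the dashed lines.

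The spread over libraries was set beside counting error and beside genes of like abundance. The coefficient of variation of CPM over the 6 libraries was 19.0% for Gdf9, where counting alone gives 1.98% (2.79% on pairs). For Bmp15 it was 17.7%, against 5.54% (7.84% on pairs). Gdf9 varied more within the water group (25.7%) than within the phthalate group (13.9%), and Bmp15 the other way (8.66% and 20.5%), with 3 libraries each. The 198 genes of like abundance to Bmp15 had a median of 15.3%, and 126 of them varied less than Bmp15. The 7 such genes around Gdf9 had a median of 13.1%, and 5 of them varied less than Gdf9.

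The balance of the pair differed by library more than either group sum shows, and needs no scaling between libraries. There were 10.4, 5.88 and 6.24 Gdf9 counts per Bmp15 count in the water libraries, and 12.5, 8.39 and 6.37 in the phthalate libraries. Phthalate library 1 and water library 1 were highest, and the groups overlapped. As a share of the 2 genes' counts, Bmp15 took 8.77% in water library 1 (95% exact binomial interval 7.87 to 9.74) and 14.5% in water library 2 (13.2 to 15.9), and these intervals did not meet. In the phthalate libraries the share went from 7.38% (6.44 to 8.41) in library 1 to 13.6% (12.3 to 14.97) in library 3. In the sums, Gdf9 per Bmp15 was 7.31 in water and 8.59 in phthalate, 1.18-fold higher (1.07 to 1.29), a log2 difference of 0.23. That difference was 0.50 without water library 1 and 0.46 without phthalate library 3. It was 0.09 without water library 2, 0.12 without water library 3 and 0.00081 without phthalate library 1.

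**Figure D3:**
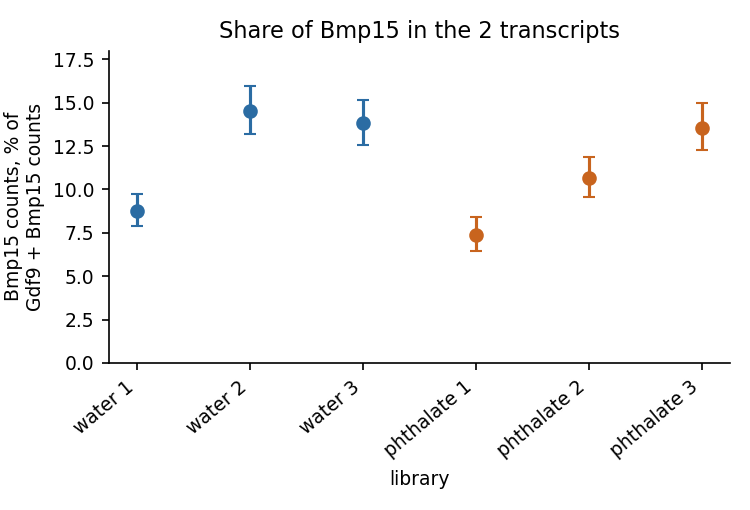
Bmp15 counts as a percentage of the counts of Gdf9 and Bmp15 together, by library (blue water, orange phthalate), with 95% exact binomial intervals on an axis from 0. Water library 1 (8.77%) and phthalate library 1 (7.38%) lie lowest, and water library 2 (14.5%) lies highest.

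The base composition of abundant transcripts was set beside this balance. Gdf9 has 53.0% G and C and Bmp15 has 42.5%. For each library, the median relative level of 148 genes within 3 points of the GC content of Gdf9 was set against that of 108 genes near Bmp15, a comparison chosen after the values were seen. The log2 difference was 0.10 in water library 1, -0.16 in water library 2 and -0.03 in water library 3. It was 0.11, 0.09 and -0.07 in phthalate libraries 1, 2 and 3. The corresponding difference of Gdf9 minus Bmp15 was 0.38, -0.44 and -0.35 in water and 0.66, 0.08 and -0.32 in phthalate, of the same sign in each library and larger in 5 of the 6. Phthalate library 1 and water library 1 also had the smallest totals, 252267 and 269491 counts. The part of GC content and depth in the balance was not tested. Genes of like length, 106 near Gdf9 and 87 near Bmp15, gave differences from -0.16 to 0.15, with the lowest in phthalate library 1.

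Levels of the pair were compared per length. Gdf9 had 6821, 4204 and 4866 CPM per kilobase of coding transcript in the water libraries and 5770, 4788 and 4431 in the phthalate libraries. Bmp15 had 384, 419 and 457 in water and 269, 335 and 408 in phthalate. Gdf9 was thus 10.0 to 21.4 times as high as Bmp15 in single libraries, and 13.4 times as high over all counts. On this scale Gdf9 held place 5 and Bmp15 place 188 by mean, among 11858 genes with a count and an annotated coding transcript. Taking the shortest annotated Gdf9 transcript, a non-coding one of 382 bases, would give 63.0 times, so the factor depends on the gene model.

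The genes whose pattern over the 6 libraries was most like each member were named by the root-mean-square difference of log2 level relative to the gene's own mean, over the genes that averaged 100 counts or more and had a count in every library. For Gdf9 they were Anxa7, an annexin gene (0.082), Csnk1e, a casein kinase gene (0.091), and Rpl36, a ribosomal protein gene (0.099). For Bmp15 they were Ldhb, a lactate dehydrogenase gene (0.090), Mphosph6, an RNA exosome cofactor gene (0.094), and Ube2d3, a ubiquitin-conjugating enzyme gene (0.096). The median difference over all 447 genes was 0.33 for Gdf9 and 0.31 for Bmp15. The members were not alike by this measure. Bmp15 differed from Gdf9 by 0.41, which put it at place 350 of 447, and libraries that share depth and composition enter every such value.

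**Figure D4:**
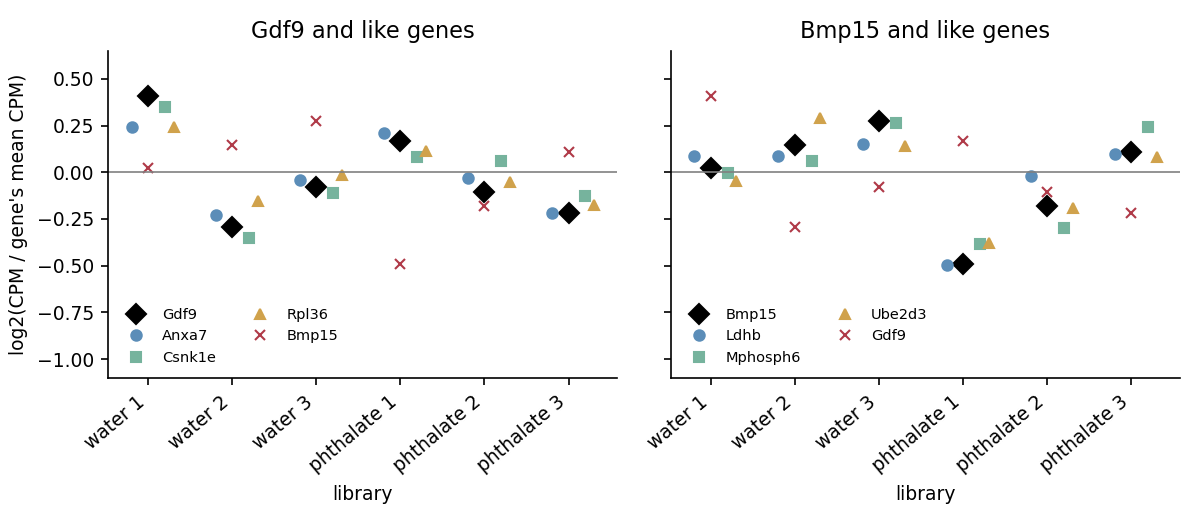
Level of each member (black diamonds), its 3 most like genes (coloured circles, squares and triangles) and the other member (red crosses) in each library, as log2 of CPM over the gene's mean CPM. Gdf9 was highest in water library 1 (0.41), and Bmp15 was lowest in phthalate library 1 (-0.49).

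The pathway around the pair was read from 111 other genes in 9 lists, of which 28 passed the filter on low counts. Past 1.5-fold were 0 of the 28 toward phthalate, where 6.96% of all genes were, and 2 toward water, Acvr2b and Nr6a1, where 8.14% of all genes were. Nr6a1 was not past it without water library 1 (-0.43) or phthalate library 2 (-0.49), whereas Acvr2b was past it with any 1 library left out (-1.23 to -0.77). The groups did not overlap for 2, Bmp5 and Acvr2b, both higher in water, where 5.49% of all genes separated in that direction. The median log2 ratio was 0.01 over the 28 and 0.0089 over all 4644 genes. With 1 library left out, the sign of the ratio turned at least once for 16 of the 28 genes. The counting interval excluded 0 for 6, Bmp5, Tgfb2, Fgf8, Bmpr1b, Acvr2b and Nr6a1, and on counts halved to pairs it did so for Nr6a1 alone (1 of 28).

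Other ligands were scarce beside the members. Of 31 superfamily ligands, 20 had 0 counts and 3 passed the filter, with a median log2 ratio of 0.19. The filter was run anew with each library left out, so the genes in a median can change. So recomputed, the median was -0.15 without water library 1 and -0.11 without phthalate library 3. For the same 3 genes the middle value was 0.19 and 0.03 there. Without phthalate library 2 it turned to -0.02 for the same 3, and without water library 3 it was 0.02. With no filter, over the 11 ligands with a count, the median was -0.50. Tgfb2, a TGF-beta ligand gene, had 112 to 174 counts in the water libraries and 136 to 179 in the phthalate libraries (log2 ratio 0.20, interval 0.01 to 0.40, or -0.08 to 0.48 on pairs). It was 0.03 without phthalate library 3 and 0.07 without water library 3. Bmp6, named above, had 16 to 36 counts per library and Bmp5, a BMP ligand gene, had 12 to 31. Bmp5 was at 20, 31 and 25 counts in water and 12, 18 and 19 in phthalate (-0.56, interval -1.11 to -0.02, or -1.36 to 0.21 on pairs), and its CPM did not overlap between the groups. Tgfb3, a further TGF-beta ligand gene, had 6 to 15 counts and did not pass the filter. Per kilobase, Tgfb2 stood at 102 CPM and Bmp6 at 25.2, against 5147 for Gdf9 and 379 for Bmp15.

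Of 3 other factors that oocytes secrete, all passed the filter and none was past 1.5-fold, with a median of 0.19. Leaving out 1 library gave medians from 0.02 (without water library 3) to 0.40 (without phthalate library 3). Fgf8, a fibroblast growth factor that acts on cumulus cells together with BMP15, had 73, 46 and 47 counts in water and 80, 64 and 53 in phthalate. Its log2 ratio was 0.32 (0.01 to 0.63, or -0.12 to 0.76 on pairs), and the groups overlapped. It ran from 0.12 without phthalate library 1 to 0.60 without water library 1. Rspo2, which encodes a potentiator of WNT signalling, had 126 to 206 counts in water and 140 to 170 in phthalate (0.10, and from -0.0074 to 0.34 with 1 library left out). Bmp6 was at 0.19 (-0.29 to 0.67), and at -0.02 without phthalate library 2.

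Receptor transcripts were few. Of 14 receptor genes, 5 had 0 counts and 4 passed the filter, with a median log2 ratio of -0.30. Leaving out 1 library, with the filter run anew, gave medians from -0.73 (without phthalate library 1) to -0.11 (without water library 2), and -0.58 without water library 1. The -0.73 was not over the same 4 genes. Without phthalate library 1, Bmpr2, Bmpr1b, Acvr1b and Acvr2b were at -0.01, -0.73, 0.02 and -1.23. Bmpr2, the shared type II receptor, had 12, 26 and 35 counts in water and 20, 24 and 23 in phthalate (-0.05, -0.55 to 0.45). It was at 0.31 without water library 3 and -0.35 without water library 1. Bmpr1b, the type I receptor for BMP15, had 16, 40 and 26 counts in water and 21, 25 and 7 in phthalate (-0.56, -1.08 to -0.04, or -1.32 to 0.18 on pairs), with overlap. With 1 library left out Bmpr1b ran from -0.81 (without phthalate library 2) to -0.20 (without water library 2), and was at -0.22 without phthalate library 3. Acvr2b, an activin receptor, had 14, 21 and 12 counts in water and 9, 9 and 4 in phthalate (-1.02, -1.82 to -0.26, or -2.20 to 0.07 on pairs). Acvr1b, an activin type I receptor, had 7 to 14 counts per library (0.20, -0.53 to 0.94). It ran from 0.0081 without phthalate library 3 to 0.55 without phthalate library 2. Tgfbr1, the type I receptor for GDF9, had 0 to 2 counts per library and is named after its values were seen. Per kilobase, Bmpr1b was at 14.9 CPM and Bmpr2 at 6.44.

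Among 8 SMAD genes, 3 passed the filter and Smad6, an inhibitory SMAD gene, had 0 counts. The median log2 ratio was -0.15. It turned to 0.24 without water library 3 and otherwise ran from -0.39 (without phthalate library 2) to -0.02 (without phthalate library 3). Smad3, which transmits GDF9 signals in target cells, had 44 to 76 counts in water and 42 to 78 in phthalate (-0.15, -0.45 to 0.16). It ran from -0.39 without phthalate library 2 to -0.0012 without water library 3. Smad2, its close relative, had 12 to 22 counts in water and 19 to 26 in phthalate (0.44, -0.11 to 0.99). Smad4, the common partner, had 13, 14 and 43 counts in water and 17, 20 and 14 in phthalate (-0.38, -0.93 to 0.16). Without water library 3 Smad4 was at 0.41, so its direction rested on that library. Smad1, of the BMP15 branch, had 4 to 7 counts per library and did not pass the filter. Values of each overlapped between the groups.

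Of 15 antagonists and inhibitors, 3 passed the filter and 5 had 0 counts. Ski, a repressor of SMAD-dependent transcription, had 73 to 95 counts in water and 87 to 112 in phthalate (0.24, -0.01 to 0.49). Smurf2 and Smurf1, ubiquitin ligases that act on SMADs and receptors, were at 0.04 (-0.38 to 0.46) and 0.0034 (-0.65 to 0.65). Smurf2 ran from -0.25 without water library 3 to 0.26 without phthalate library 2. Smurf1, with 16, 13 and 14 counts in water and 23, 15 and 3 in phthalate, ran from -0.63 without phthalate library 1 to 0.44 without phthalate library 3. The median of the 3 was 0.04. It turned without phthalate library 1 (-0.12) and without water library 3 (-0.0063), and it was 0.26 without water library 1 or phthalate library 3. With no filter, the median over the 10 genes of the list with a count was -0.37. Of 8 convertases, enzymes that cleave such precursors, only Furin passed the filter. It had 54, 49 and 62 counts in water and 57, 47 and 24 in phthalate (-0.29, -0.64 to 0.05), with the lowest value in phthalate library 3. It was -0.05 without that library and -0.59 without phthalate library 1.

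Regulators of the pair's transcription were present. Of 9 such genes, 5 passed the filter, with a median of -0.05. Of these 1, Nr6a1, was past 1.5-fold toward water, where 8.14% of all genes were. With the filter run anew, the median turned without water library 3 (0.06) or phthalate library 1 (0.07), and was -0.47 without phthalate library 3. For the same 5 genes the middle value was 0.06, 0.19 and -0.45 there. Nobox, an oocyte homeobox gene whose protein binds the promoters of Gdf9 and Bmp15, had 129, 117 and 150 counts in water and 114, 131 and 118 in phthalate (-0.05, -0.26 to 0.16). Lhx8, another oocyte homeobox gene, was at 0.14 (-0.20 to 0.49), and Foxo3, a regulator of follicle activation, was at 0.11 (-0.18 to 0.40). Without phthalate library 3 Lhx8 was at -0.11 and Foxo3 at -0.45, and without water library 2 Foxo3 was at -0.21. Nr6a1, which encodes a nuclear receptor known to repress both genes, had 40, 23 and 24 counts in water and 21, 12 and 16 in phthalate (-0.76, -1.29 to -0.23). All phthalate counts of Nr6a1 were below all water counts, but in CPM phthalate library 1 lay above water library 2, so the groups overlapped.

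Transcripts that the pair is known to raise in cumulus cells were few in these oocytes. Of 18 such genes, 9 had 0 counts, among them Ptgs2, Ptx3 and Tnfaip6, which serve cumulus expansion. Only Fdps, of cholesterol synthesis, and Pfkp, of glycolysis, passed the filter. Fdps had 27, 17 and 8 counts in water and 10, 24 and 16 in phthalate (0.02, -0.57 to 0.60), and Pfkp had 15, 10 and 0 in water and 10, 4 and 10 in phthalate (0.01, -0.86 to 0.88). With 1 library left out, Fdps ran from -0.32 to 0.51 and Pfkp from -0.56 to 0.78, the lowest without water library 3 and the highest without water library 1. Responses of the target cells were therefore not measured here. Of 8 genes of oocyte and cumulus contact, 5 passed the filter, none past 1.5-fold, with a median of 0.02. Leaving out 1 library gave medians from -0.06 (without phthalate library 3) to 0.08 (without phthalate library 1). Gja4, the gap junction protein of the oocyte side, had 382 to 433 counts in water and 381 to 454 in phthalate (0.06, -0.06 to 0.17), and was at -0.06 without phthalate library 3. Cdh1, a cell adhesion gene, was at 0.02, Ctnnb1, its partner, at 0.09, and Daam1, a regulator of actin, at -0.05, and the sign of each turned with 1 library left out. Gja1, the gap junction protein of the cumulus side, had 0 counts.

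**Figure D5:**
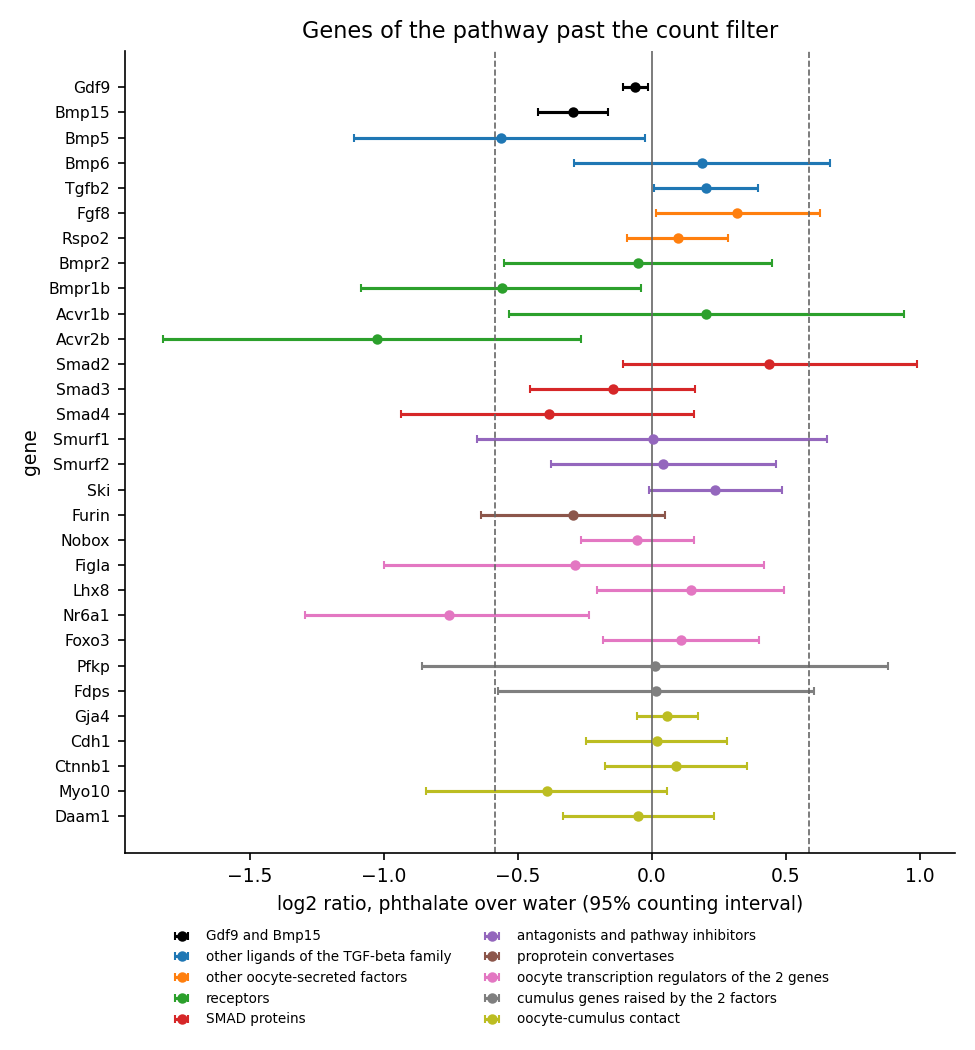
Log2 ratio of phthalate over water, with 95% exact counting intervals, for Gdf9, Bmp15 (black) and the 28 pathway genes that passed the count filter, coloured by role. Dashed lines mark 1.5-fold. Acvr2b (-1.02) and Nr6a1 (-0.76) are past it toward water, and their intervals are wider than those of the members.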

How the data were processed

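The deposited table holds raw counts, as whole numbers, of 25239 gene symbols and of 92 ERCC RNAs. Per the labels, the libraries were made with Smart-seq3, a full-length single-cell method, and sequenced as read pairs. Per the submitters' processing notes, cutadapt, Trimmomatic, HISAT2, DESeq2 and the build mm10 were used. The counting tool, annotation, strand setting and handling of molecular identifiers are not given in the sources used here. The members and gene lists were chosen with earlier results of these data known.

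ERCC counts stayed out of totals. Genes were kept by filterByExpr of edgeR 4.0.16 in R 4.3.3 (minimum count 10, minimum total 15). Ratios are summed phthalate over summed water counts, divided by totals scaled by TMM factors, with no pseudocount. Their 95% intervals are exact (Clopper-Pearson) for 2 counts given their sum, and that of the balance is the exact interval of an odds ratio. The ratio code was tested on simulated counts. PCR copies, where they were not removed, and paired mates, where both were counted, make the intervals too narrow. Those on halved counts allow for mates only. Lengths, GC content and sequences came from GENCODE M21, neighbours from RefSeq (GRCm38.p6). No promoter or protein sequence was used.

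Named genes were both members, up to 4 genes per list with the highest mean count (at least 5), list genes past 1.5-fold with a mean count of at least 20, the 3 most like genes, and neighbours by position and by level. Bmp15 and Gdf9 were described with no test, since the labels do not show that the libraries of a group are independent and each group was treated as 1 sample. Alternatives were other scalings (totals, DESeq2 size factors, ERCC), means of CPM, other filters, other lengths and leaving out each library. The filter on low counts was run anew with each library left out. The union of exons, the overlap on TMM-scaled CPM, the ratios within replicate numbers and the list genes with 1 library left out were added after the data were seen.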

Additional observations from a re-analysis of the deposited data

How the results depend on the processing

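Library totals without TMM factors, DESeq2 size factors, leaving out Rn45s and means of CPM kept the ratios of Gdf9 and Bmp15 inside their counting intervals. ERCC totals gave 0.053 for Gdf9, outside its interval, and -0.18 for Bmp15. Leaving out 1 library gave -0.19 to 0.14 for Gdf9, -0.49 to -0.15 for Bmp15 and 0.00081 to 0.50 for their balance. Genes past 1.5-fold numbered 701, 951 to 1144 with 1 library left out, 5066 without a filter and 224 with a mean count of at least 20. Genes whose groups did not overlap numbered 465, and 922 to 1266, 974 and 280 under the same settings, since fewer libraries and other gene sets enter. The level of Gdf9 over Bmp15 per length, 13.4, was 63.0 with the shortest transcripts, 11.9 with the union of exons and 12.5 to 14.3 with 1 library left out. Medians were recomputed for 7 lists, 77 values in all, of which 12 had the opposite sign and 9 had moved by more than 1 SD of the list's genes. The filter was run anew or dropped in these settings, so some of these medians are over other genes. Such cases are given above for the ligands, receptors, antagonists and regulators. The part of that in the changes was not tested. With the replicate number as a block, the mean log2 ratio within a number was -0.04 for Gdf9, -0.32 for Bmp15 and 0.27 for the balance, with no test. Within numbers 1, 2 and 3 the log2 ratio of Bmp15 was -0.50, -0.37 and -0.07, and that of the balance 0.27, 0.51 and 0.03. In number 3 the intervals of the Bmp15 share overlapped. Another numbering could change these signs, since Bmp15 in phthalate library 3 lay above water library 1 in CPM. Deviations of same-numbered libraries from their group means correlated by 0.24, 0.03 and 0.13 across 448 genes, which are not independent replicates, and the labels tie no number to an animal or culture, so the libraries were taken to share only a number. Smad1, with at most 7 counts per library, was given no ratio.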
